A study of Homo sapiens with 12 samples.

Results

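The receptors of the bone morphogenetic protein (BMP) and TGF-β family were measured in Rh30 cells, a human alveolar rhabdomyosarcoma line that carries the fusion gene PAX3-FKHR (PAX3-FOXO1). The group holds 10 receptor genes out of 23870 gene names on the array, and every probe whose deposited gene name was BMPR1A, BMPR1B, BMPR2, ACVR1, ACVR1B, ACVR2A, ACVR2B, TGFBR1, TGFBR2 or TGFBR3 was used, 19 of 41000 gene probes. BMPR1B was chosen by its low signal in the knockdown clone, so its values in the 2 knockdown comparisons are a description with no test. The other 9 receptors were listed by family name.

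The cultures compared differed in more than the fusion gene. WT was untransfected parental Rh30 grown without puromycin. CON was a stable Rh30 clone with a non-targeting shRNA, and KD1 was a stable Rh30 clone with an shRNA against PAX3-FKHR, both kept at 1 μg/mL puromycin. Each of CON and KD1 is 1 clone, so clone, vector and puromycin cannot be told apart from the shRNA target in KD1 vs WT, nor clone from target in KD1 vs CON. Cells were grown for 24 h, and 500 ng of RNA was labeled with Cy3 or Cy5. The 12 arrays hold 6 RNA extracts, 2 per culture, in 3 comparisons (KD1 vs CON, KD1 vs WT and WT vs CON). Each comparison had 2 biological replicates, each hybridized in both dye orientations. No source used here says how far the 2 extracts of a culture were separate, so p-values measure the spread between these extracts.

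Apart from TGFBR3, these receptors are serine/threonine kinases that work in pairs. A ligand brings a type II receptor together with a type I receptor, the type II kinase phosphorylates the type I receptor, and the activated type I receptor phosphorylates SMAD proteins that enter the nucleus. BMPs signal mainly through BMPR1A, BMPR1B and ACVR1 to SMAD1, SMAD5 and SMAD9, while TGF-β and activins signal through TGFBR1 and ACVR1B to SMAD2 and SMAD3. In the muscle lineage BMP and TGF-β signals are known to restrain differentiation.

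Probe identity mattered for BMPR1B, because only 1 of its 3 probes was bright. The brightest, A_32_P217901, lies at chr4:96296744-96296803 (build NCBI36, as the files give it), and A_32_P24939 lies beyond it at chr4:96297236-96297295. A_24_P63380 is listed at chr4:96289061-96292839, a span of 3779 bases for a probe of 60 bases, so that it crosses at least 1 intron. Its closest match among the probes of the other receptors was A_24_P418717 of BMPR1A, at chr10:88671406-88673145. The 2 sequences are shown because they were the most alike of any pair from BMPR1B and another receptor. Written 5′ to 3′ as deposited, capitals mark the bases that are identical in the best alignment without gaps, 35 of 50 aligned bases.

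BMPR1B A_24_P63380: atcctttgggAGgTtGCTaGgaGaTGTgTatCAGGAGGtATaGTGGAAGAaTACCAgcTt
BMPR1A A_24_P418717: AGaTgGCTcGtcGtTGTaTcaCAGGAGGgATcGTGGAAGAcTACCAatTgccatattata

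The best match of any other pair of a BMPR1B probe and another receptor's probe was 26 identical bases. Whether labeled BMPR1A RNA binds the BMPR1B probe was not tested.

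On the 12 arrays 64.4% to 67.8% of spots were well above background in Cy5 and 71.1% to 73.6% in Cy3, and 12 arrays of 6 extracts bound what can be resolved. The limit set by the negative controls, their 99th percentile, differed between arrays, from 1.81 to 40.63 scanner units in Cy3 and from 2.53 to 40.65 in Cy5. It was highest in both channels on the array of KD1 vs CON replicate 1 with KD1 in Cy5. One dye-swap pair stood apart. The 2 arrays of KD1 vs WT replicate 2 correlated with r = 0.45 across 21870 probes, against 0.84 to 0.89 for the other 5 pairs, and their log2 ratios differed by more than 1 for 13.0% of the probes, against 0.27% to 0.48%. The mean of that pair nevertheless correlated with the difference between KD1 vs CON and WT vs CON of replicate 2 with r = 0.97, as did replicate 1 with r = 0.98 (probes are not independent replicates). Counts of arrays with 1 direction below include this pair. With the pair replaced by that difference, the KD1 vs WT means of the other 9 receptors moved by at most 0.12 by their brightest probes, and 0 of their probes were called. The WT vs CON arrays shared 1 slide, and each replicate of the KD1 arrays had its own, so the replicate values of the KD1 comparisons are also the within-slide values. For the targeted fusion, the brightest PAX3 probe gave −0.39 and −0.46 in KD1 vs CON, and the brightest FOXO1 probe gave −0.26 and −0.58, with adjusted p = 0.33 and 0.43 (limma). Whether these probes read the fusion transcript was not checked, and they can read the unrearranged genes. Of the other PAX3 probes, A_23_P209499 gave 0.16 and −0.33 in KD1 vs CON and A_24_P362595 gave −0.25 and −0.32. The other FOXO1 probe gave −0.25 and −0.52. Of the 9 muscle and rhabdomyosarcoma markers, MYOD1, MYOG, MYF5, DES, CDH15, FGFR4 and NOS1 were well above background on every array in all cultures and TFAP2B on none. Of the markers of other cell types, LUM, PDGFRA and PTPRC were well above background on none, while THY1, COL3A1, CD14, CD3E, PECAM1 and VWF were on all. Of the muscle markers only MYOG was called, lower in WT vs CON (mean −1.73, adjusted p = 0.018, limma). MYOG had −1.35 and −0.92 in KD1 vs CON (adjusted p = 0.051, limma) and 0.74 and 0.46 in KD1 vs WT (adjusted p = 0.23, limma).

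The WT extract of replicate 2 stood apart in the epithelial markers, of which 3 of 4 were on the array. EPCAM, an adhesion molecule of epithelial cells, was well above background on 4 of 4 arrays with that extract and on none with the other 5 extracts. Its log2 ratio in WT vs CON was 0.24 in replicate 1 and 5.43 in replicate 2, and in KD1 vs WT 0.14 and −5.56. CDH1 (E-cadherin) had 0.10 and 2.21 in WT vs CON, and KRT19, a keratin, 0.01 and 2.996. The summed signal of the 3 markers was between 171 and 310 scanner units on the arrays of that extract and between 5.63 and 37.5 on those of the other extracts. EPCAM and CDH1 were tested in no comparison and KRT19 only in WT vs CON (adjusted p = 0.35, limma). The part of this extract in the WT results was not tested, and those results are given by replicate, of which replicate 1 is without it. Of the endothelial markers, VWF had 1.01 and 2.97 in KD1 vs CON, where it was not tested, and 1.02 and 3.42 in KD1 vs WT (adjusted p = 0.11, limma), while PECAM1 had −0.63 and 0.09 in KD1 vs CON.

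BMPR1B had the lowest signal in KD1 and the highest in WT. BMPR1B is a type I receptor for BMPs and GDF5, known for its part in cartilage formation. On the 8 arrays with WT, the background-subtracted signal of its brightest probe was between 117 and 253 scanner units (median 171). On the 8 arrays with CON it was between 19.8 and 90.9 (median 42.4). On the 8 arrays with KD1 it was between 0.57 and 5.18 (median 2.76). The 8 values of each culture are repeat hybridizations of 2 extracts, and BMPR1B was chosen by its low KD1 signal. CON and WT were well above background on all 8 of their arrays and KD1 on 0 of 8, so KD1 has only a bound. In bulk RNA, fewer cells with BMPR1B RNA and less of it per cell cannot be told apart. Within CON the replicates also separated, with 19.8 to 35.2 in replicate 1 and 49.7 to 90.9 in replicate 2.

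**Figure D1:**
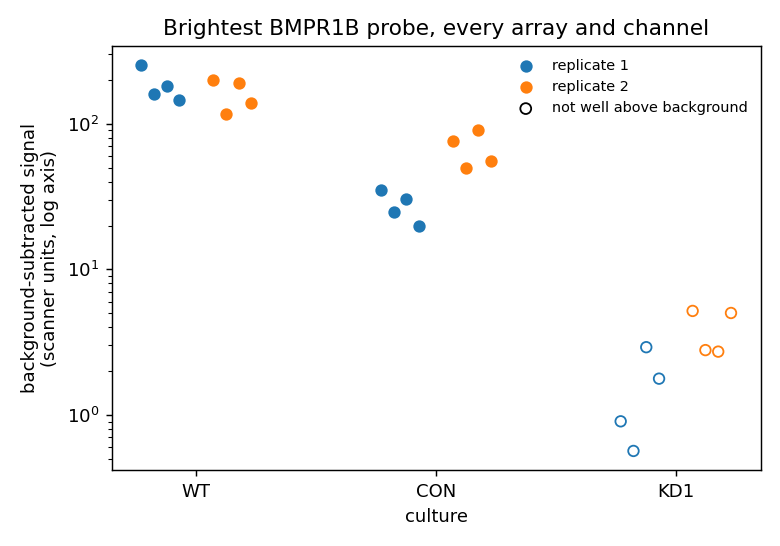
Background-subtracted signal of the brightest BMPR1B probe in scanner units on a log axis, for the WT, CON and KD1 cultures, 1 point per array and channel, colored by replicate. Open points were not well above background. The 8 KD1 points lie between 0.57 and 5.18, the CON points between 19.8 and 90.9 and the WT points between 117 and 253. The points of a culture come from 2 extracts.

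In KD1 vs CON the brightest BMPR1B probe had log2 ratios of −4.08 and −4.68 on the dye-swap pair of replicate 1 and −4.20 and −4.02 on that of replicate 2, with a mean of −4.24 ± 0.19 (SD, n = 2). In KD1 vs WT it had −6.14 and −6.36 in replicate 1 and −4.81 and −6.53 in replicate 2, with a mean of −5.96 ± 0.41 (SD, n = 2). With the pair that stood apart replaced, the KD1 vs WT mean was −5.87. All 8 arrays gave a lower signal in KD1 than in its partner. With KD1 set to the lowest signal that counted as well above background, CON was at least 7.02-fold brighter than KD1 and WT at least 29.3-fold brighter, which are bounds against that floor only. These sizes depend on how background is handled, since the KD1 signal is at background. After normexp with an offset of 50 and loess, the mean log2 ratio was −0.51 against CON and −1.88 against WT. When signals were floored at the limit of the negative controls and centered on the median, it was −1.88 against CON and −4.33 against WT, smaller than those bounds.

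By the criteria of a 2-fold mean in both KD1 comparisons, 1 direction on all 8 arrays, and each array brighter than its negative controls, 187 of 21899 probes were lower in KD1, which is 0.854%, and no receptor probe was among them. The brightest BMPR1B probe had the fold and the direction but passed the signal limit on 7 of 8 arrays. On the remaining array, that with the highest limit, CON had a signal of 35.2 in Cy3 against a limit of 40.63. It met the criteria when the limit was asked of a single array. The brightest BMPR1B probe was also not tested in KD1 vs CON for this reason.

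WT vs CON was the comparison that did not choose BMPR1B. Its brightest probe had log2 ratios of 2.97 and 2.59 in replicate 1 and 1.47 and 1.29 in replicate 2, higher in WT on 4 of 4 arrays. The mean was 2.08 ± 0.99 (SD, n = 2), with adjusted p = 0.028 (limma, Benjamini-Hochberg over 26566 probes). The test took its spread from all 3 comparisons, including the KD1 values that chose BMPR1B (SD 0.19 and 0.41). This p is therefore not independent of that choice. The call is not firm: adjusted p was 0.12 after normexp and loess, 0.22 with median centering, 0.075 with extract levels and a replicate block, 0.15 with separate channels, 0.063 without the signal filter, 0.053 with the pair that stood apart replaced and 0.072 with 3 residual degrees of freedom in place of 2 (all limma), while the log2 ratio stayed between 1.18 and 2.78 over all settings, including those with 1 replicate left out. The KD1 comparisons share the CON and WT extracts with it, so the 3 sets of BMPR1B values are not independent.

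The other BMPR1B probes were dim and did not give 1 picture. A_32_P24939 was well above background in WT on 8 of 8 arrays, in CON on 3 of 8 and in KD1 on 2 of 8. Its signal ranges overlapped, with 3.59 to 12.4 scanner units in CON and −0.58 to 9.16 in KD1. In KD1 vs WT it was lower in KD1 on 4 of 4 arrays, with a mean of −3.04 ± 1.23 (SD, n = 2). In KD1 vs CON it had 1.92 and −2.29 on the dye-swap pair of replicate 1 and −0.32 and −3.59 on that of replicate 2. The sign changed with the dye orientation in replicate 1 only, and the mean was −1.07 ± 1.25 (SD, n = 2), lower in KD1 on 3 of 4 arrays. In WT vs CON it was higher in WT on 4 of 4 arrays, with a mean of 1.68 ± 0.43 (SD, n = 2). Since CON was mostly at background, the probe entered that test through WT, and after normexp and loess the mean was 0.29. The junction probe A_24_P63380 was above the negative controls on 4 of 12 arrays and had 3.75 and −2.35 on the 2 arrays of KD1 vs CON replicate 1. Its signal was called well above background in WT on 7 of 8 arrays, in CON on 1 of 8 and in KD1 on 1 of 8. In KD1 vs CON the 3 probes had means from −4.24 to 0.08, so the lower signal there rests on 1 probe. In KD1 vs WT the junction probe had a mean of −2.36, but its sign followed the dye, with 0.09 and 0.23 on the arrays with KD1 in Cy5 and −3.93 and −5.85 on the swapped ones. There the lower signal rests on the other 2 probes.

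**Figure D2:**
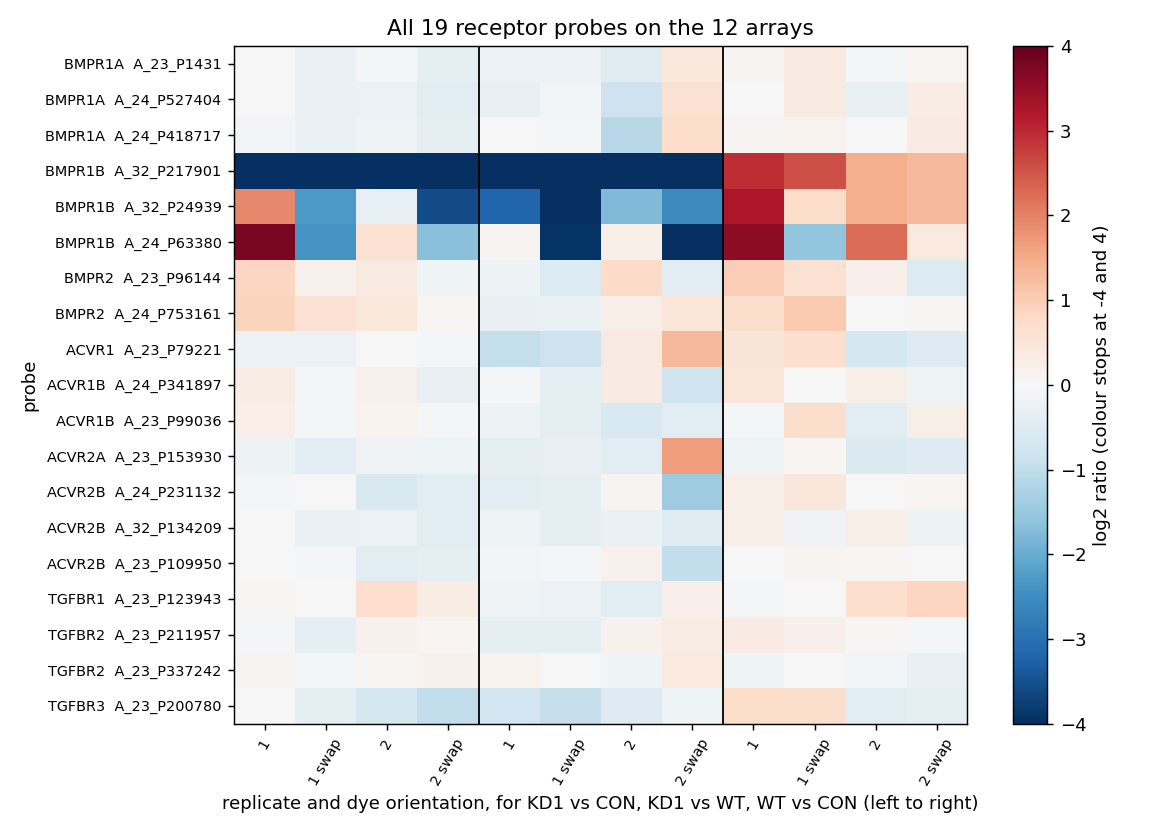
Log2 ratio of each of the 19 receptor probes (rows) on the 12 arrays (columns, by comparison, replicate and dye orientation), with color stopping at −4 and 4. The brightest BMPR1B probe is low on all 8 KD1 arrays, the 2 dim BMPR1B probes change sign with the dye orientation on some pairs, and the 16 probes of the other receptors stay pale.

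No probe of the other 9 receptors passed the test in any comparison. Of their 16 probes, 15 were tested in KD1 vs CON and 0 were called, where 1.81% of all 21925 probes were called, and 0 had an unadjusted p under 0.05. In KD1 vs WT, 0 of 15 were called, where 1.09% of 24860 probes were, and 1 had an unadjusted p under 0.05. In WT vs CON, 0 of 16 were called, where 1.42% of 26566 probes were, and 0 had an unadjusted p under 0.05. For so few probes a count of 0 is near these background shares and is no result about the receptors. No probe of these receptors had a mean of 2-fold or more in any comparison, and their means ran from −0.52 to 0.49 against CON, from −0.59 to 0.13 against WT, and from −0.30 to 0.45 for WT vs CON.

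By the brightest probe of each gene, the BMPR1B log2 ratio minus the median of the other 9 receptors was −4.14 ± 0.15 (SD, n = 2) for KD1 vs CON. It was −5.75 ± 0.16 (SD, n = 2) for KD1 vs WT and 1.96 ± 0.80 (SD, n = 2) for WT vs CON. The medians of the 9 were −0.13, −0.13 and 0.14. The first 2 differences are a description of the values that chose BMPR1B, with KD1 not well above background on any of 8 arrays, and they shrank to −0.41 and −1.69 after normexp and loess and to −1.75 and −4.15 with median centering.

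**Figure D3:**
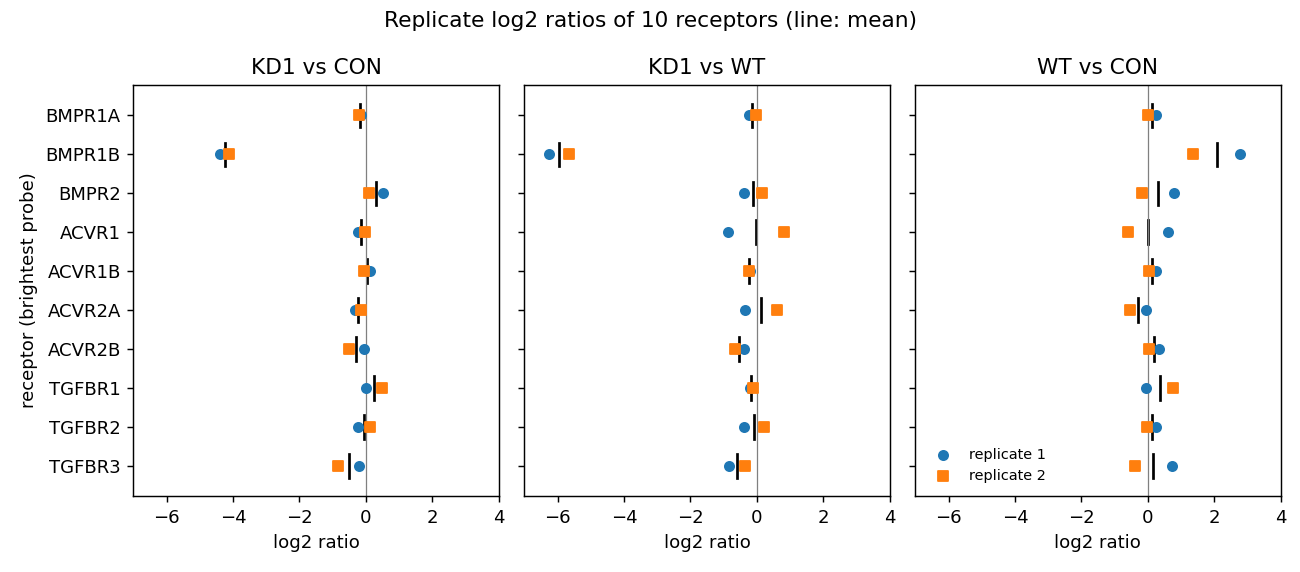
Log2 ratio of the brightest probe of each of the 10 receptors in KD1 vs CON, KD1 vs WT and WT vs CON, with a circle for replicate 1, a square for replicate 2 and a line for the mean. BMPR1B lies at −4.24, −5.96 and 2.08, while the means of the other 9 receptors lie between −0.59 and 0.36.

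Among the type I receptors, BMPR1A is the close relative of BMPR1B and binds many of the same BMPs. Its brightest probe, A_23_P1431, gave −0.14 and −0.22 against CON and, against WT, −0.24 and −0.03. Its 3 probes gave means between −0.24 and −0.18 in KD1 vs CON, a range of 0.06, and none passed the test (adjusted p from 0.60 to 0.72, limma). The probes read the same 4 arrays, so their agreement is between sequences and not between samples. The size also changed with the dye: A_23_P1431 had −0.04 on the arrays with KD1 in Cy5 and −0.31 on the swapped ones. ACVR1, the type I receptor also called ALK2, gave 0.60 and −0.60 for WT vs CON and, for KD1 vs WT, −0.88 and 0.83. Its dye-swap arrays were close in WT vs CON, with 0.53 and 0.67 in replicate 1 and −0.69 and −0.51 in replicate 2. In that comparison the spread of ACVR1 lay between the replicates and not between the dyes. With the pair that stood apart replaced, replicate 2 of KD1 vs WT was 0.58. In KD1 vs CON, which has no WT extract, ACVR1 had −0.24 and −0.02. ACVR1B, the activin receptor ALK4, had 0.11 and −0.07 in KD1 vs CON, and TGFBR1, the type I receptor for TGF-β, had 0.01 and 0.48.

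Among the type II receptors, BMPR2, which pairs with the BMP type I receptors, gave 0.51 and 0.10 for KD1 vs CON, −0.39 and 0.15 for KD1 vs WT, and 0.79 and −0.18 for WT vs CON. The 10 tested genes on either side of BMPR2 had medians of 0.33 and 0.35 against CON in KD1, and 0.36 and 0.29 against CON in WT. The BMPR2 means were 0.31 and 0.31 by the brightest probe, and 0.49 and 0.45 by A_24_P753161. Not every receptor lay near its neighbors in KD1 vs CON. Those of BMPR1A had medians of 0.01 and 0.09 beside −0.18, and those of TGFBR3 0.04 and −0.13 beside −0.52. A regional cause was not tested. ACVR2A and ACVR2B bind activins and BMPs. ACVR2A had −0.32 and −0.15 in KD1 vs CON, and the 2 arrays of KD1 vs WT replicate 2 gave −0.41 and 1.66 for it, an example of the pair that stood apart. Its KD1 vs WT mean was 0.13, and 0.02 with that pair replaced. The 3 ACVR2B probes had means between −0.28 and −0.21 against CON and, against WT, between −0.53 and −0.25, and the brightest had the smallest adjusted p of these receptors in KD1 vs WT (0.27, limma), where its mean of −0.53 was −0.47 with the pair replaced. TGFBR2, the type II receptor for TGF-β, had −0.22 and 0.13 in KD1 vs CON.

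TGFBR3, or betaglycan, is a co-receptor without a kinase that presents TGF-β2 and inhibin. It was the lowest of the 9 in both KD1 comparisons and lower in KD1 on 8 of 8 arrays, 6 of 6 without the pair that stood apart, at −0.20 and −0.84 against CON and, against WT, at −0.84 and −0.34. The 8 arrays are repeat hybridizations of the same 2 KD1 extracts. Neither mean passed the test, with adjusted p of 0.40 and 0.34 (limma), and with that pair replaced the KD1 vs WT mean was −0.64. In WT vs CON its replicates had opposite signs, 0.72 and −0.40, which by the brightest probes held for 5 of the 9 receptors. The negative value was in replicate 2 for TGFBR3, ACVR1, BMPR2 and TGFBR2 (0.26 and −0.01). It was in replicate 1 for TGFBR1 (−0.05 and 0.77). Around BMPR1B itself, the 10 tested genes before it on chromosome 4 had a median of −0.43 in KD1 vs CON and the 10 after it 0.03, with a lowest single value of −1.01. The medians before and after it were −0.34 and 0.16 in KD1 vs WT, and −0.22 and −0.14 in WT vs CON.

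The 5 genes whose 6 replicate log2 ratios lay closest to those of BMPR1B, by mean absolute difference over 19905 tested probes with a gene name, were FBN2, NETO2, GPM6B, CNR1 and NLRX1. FBN2, which encodes the extracellular matrix protein fibrillin-2, was closest with a mean absolute difference of 0.69, and gave −3.23 and −3.54 for KD1 vs CON, −5.18 and −4.73 for KD1 vs WT, and 2.46 and 1.47 for WT vs CON. NLRX1, the fifth, was at 1.47. Likeness rests on KD1 values of BMPR1B at background, so this order is not firm. With median centering 4 of the 5 stayed among the closest 5, and after normexp and loess 0 of 5 did. FBN2, NETO2 and NLRX1 were well above background in KD1 on 8 of 8 arrays, unlike BMPR1B.

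The rest of the pathway was read from lists of 92 genes, of which 91 were on the array, by the brightest probe. Against CON in KD1, 57 were tested, 2 were lower and 0 higher, with a median of −0.17 beside −0.01 over all probes tested. In KD1 vs WT 63 were tested, 1 was lower and 0 higher, with a median of −0.09 beside 0.01. In WT vs CON 65 were tested, 1 was lower and 2 higher, with a median of −0.04 beside −0.03. The shares of all probes called are those given above.

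Of the 8 SMADs, SMAD3, which carries TGF-β and activin signals, was lower in KD1 vs CON with −1.24 and −1.23 (mean −1.23, adjusted p = 0.027, limma), and had −0.69 and −0.64 in KD1 vs WT (adjusted p = 0.16), where its mean was −0.66 with or without the pair. SMAD9, one of the SMADs downstream of BMP receptors, was lower in KD1 vs WT with −1.37 and −2.02 (adjusted p = 0.024, limma) and higher in WT vs CON with 1.41 and 1.76 (adjusted p = 0.028). With the pair that stood apart replaced, the KD1 vs WT mean was −1.73 (adjusted p = 0.041, limma). It had 0.03 and −0.33 in KD1 vs CON, where it was not tested. SMAD1 had −0.56 and −0.75 in KD1 vs CON (adjusted p = 0.16). SMAD5 had −0.06 and −0.34, and SMAD4, the partner shared by both branches, −0.17 and −0.26. Over the 11 alternatives, SMAD3 kept its call in 7 and SMAD9 in 6 in each of its comparisons.

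The BMP targets ID1, ID3 and SMAD6 differed between the replicates of KD1. ID1 had 0.98 and −1.82 in KD1 vs CON but 1.19 and 1.23 in WT vs CON. ID3 gave 0.43 and −1.52 against CON and, for WT vs CON, 0.52 and 0.41. SMAD6, an inhibitory SMAD, had 0.13 and −1.69 in KD1 vs CON. Within each replicate the ID1 dye-swap arrays were close, with 0.84 and 1.12 in replicate 1 and −1.94 and −1.71 in replicate 2. None of the 3 passed the test in any comparison (adjusted p from 0.20 to 0.80, limma). ID2 had 0.22 and −0.46 and SMAD7 0.34 and 0.55 in KD1 vs CON.

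Outside the cell, the antagonist NOG (noggin), which binds BMPs and blocks them, was lower in KD1 vs CON with −1.44 and −1.69 (adjusted p = 0.048, limma), a call kept in 3 of 11 alternatives. It was not lower against the parental cells, with 0.74 and −0.55 in KD1 vs WT (adjusted p = 0.91, limma). In WT vs CON it had −1.65 and −1.01 (adjusted p = 0.087, limma). The other call above 0 in WT vs CON was GREM1 (gremlin), another BMP antagonist, with 3.04 and 4.57 (adjusted p = 0.0030, limma). It was well above background on 2 of 8 CON arrays and 8 of 8 WT arrays, so it entered the test through WT, and its mean ran from 0.88 to 3.85 with the handling of background and the other settings. The BMP co-receptor HFE2 (hemojuvelin) was lower in WT vs CON with −2.41 and −3.46 (adjusted p = 0.045, limma), kept in 3 of 11. None of the ligands or the SMAD and receptor regulators was called in any comparison, and of 12 BMP and GDF ligands only 2 were tested in KD1 vs CON.

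**Figure D4:**
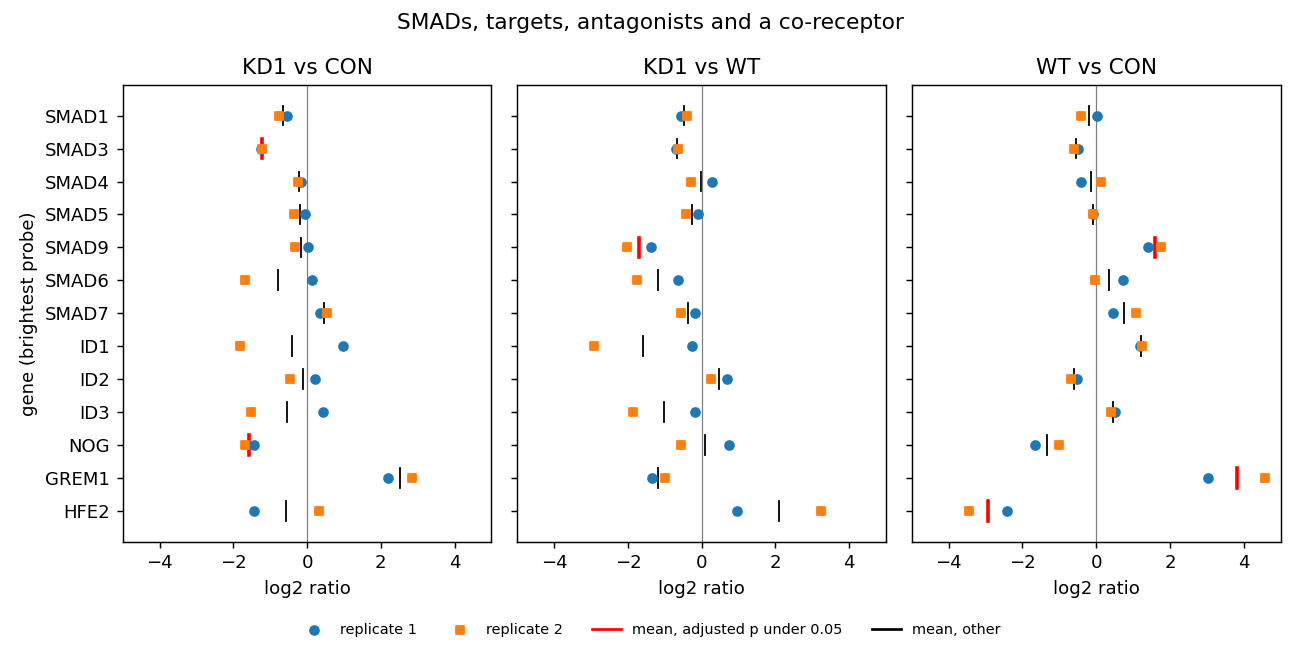
Log2 ratio of 13 SMAD, target, antagonist and co-receptor genes in KD1 vs CON, KD1 vs WT and WT vs CON, with a circle for replicate 1, a square for replicate 2 and a line for the mean, red where adjusted p is under 0.05. The replicates of ID1, ID3 and SMAD6 lie apart in the KD1 comparisons, while those of SMAD3 repeat closely in KD1 vs CON.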

How the data were processed

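The authors extracted 45015 features per array with Agilent Feature Extraction 10.5.1.1 and deposited linear intensity values, with processed signals after background subtraction and lowess, a log10 ratio, and a series table of log2 ratios in which dye-swapped arrays are already turned; 0 of its columns were unmatched. Log2 ratios were computed here from the processed intensities, turned, averaged over each dye-swap pair, and fitted with limma 3.58.1 in R 4.3.3 (lmFit, eBayes) on 6 replicate values with a coefficient for each comparison. All comparisons shared an estimate of the spread for each probe. By hand, 2 residual degrees of freedom replaced the 3 that lmFit counts, because the 3 ratios of a replicate come from 3 extracts. Probes entered a test if, on each array compared, the Cy3 or Cy5 signal after background subtraction was above the 99th percentile over the 153 negative-control spots. P was adjusted by Benjamini-Hochberg over those probes, threshold 0.05. The brightest probe of a gene has the highest mean log2 signal over all arrays. Fold bounds used separate-channel values (Aquantile).

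The members and lists were chosen with earlier results of these data known. Named pathway genes are those with adjusted p under 0.05, plus SMAD1, SMAD4, SMAD5, SMAD6, SMAD7, ID1, ID2 and ID3. Of the listed genes, 1 is not reported here and was left out of the counts. Muscle, fibroblast, epithelial, blood and endothelial marker lists were checked. Exon annotation of build NCBI36 was not used here. Python 3.11.15, numpy 2.4.6, pandas 2.3.3 and matplotlib 3.10.9 were used. Alternatives were normexp with loess, median centering, the series table, other filters, each replicate left out, a replicate block, separate channels, single dye orientations and, added after seeing the data, the replaced KD1 vs WT replicate 2 and 3 residual degrees of freedom.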

Additional observations from a re-analysis of the deposited data

How the results depend on the processing

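BMPR1B kept its direction relative to the other 9 receptors in all 3 comparisons and under all alternatives run. This was by its brightest probe or the mean of its probes. In the KD1 comparisons BMPR1B was chosen for that direction on the same arrays, so keeping it there is no support. Its distance from the median of the others changed. In KD1 vs CON it was −0.41 with normexp and loess, −1.75 with median centering, −3.96 with separate channels and −1.69 with the mean of all probes of a gene. In KD1 vs WT it was −1.69, −4.15, −5.34 with the first-named culture in Cy5, −6.37 with dye-swapped arrays and −3.60 with all probes of a gene. In WT vs CON normexp and loess gave 1.04. Leaving out a replicate gave −4.24 to −4.04, −5.87 to −5.64 and 1.39 to 2.52. The receptor probe called in WT vs CON, that of BMPR1B, became 0 with normexp, median centering, separate channels, the replicate block, no filter, KD1 vs WT replicate 2 replaced and 3 residual degrees of freedom, and 2 with the first-named culture in Cy5.

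The number of probes called (396 for KD1 vs CON, 272 for KD1 vs WT and 377 for WT vs CON) was 26, 1 and 2 with normexp and loess, 111, 102 and 137 with median centering, 201, 126 and 114 with separate channels, 1028, 1337 and 940 with the first-named culture in Cy5, and 1191, 1457 and 1100 with dye-swapped arrays. Without a filter it was 253 in KD1 vs CON and 200 in WT vs CON, and with KD1 vs WT replicate 2 replaced, an alternative chosen after seeing the data, it was 181 in KD1 vs WT. With 3 residual degrees of freedom, also chosen after seeing the data, it was 381, 154 and 233. With the replicate block it was 161, 111 and 131. The numbers pair the extracts of KD1 and CON in part, but not those of WT with either. Deviations of same-numbered extracts correlated with 0.54 for KD1 and CON, −0.07 for KD1 and WT and −0.02 for CON and WT. The 302 probes meeting the 2-fold criteria in either direction became 547 with the signal limit on a single array, and 331 to 1073 when a replicate was left out. The cause was not tested. Of the log2 ratios of single receptor probes under the alternatives, 380 moved by no more than the replicate SD or kept their call, 49 moved by more, 6 lost a call and 1 gained one. Signals near background limit BMPR1B in KD1.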
